A study of Mus musculus with 12 samples.

Results

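The AP-1 and immediate early genes followed here across LPS-driven plasmablast differentiation were Fos, Fosb, Jun, Junb, Jund, Egr1, Ier2, Dusp1, Dusp2 and Nr4a1. They were found in the tables by their symbols, and all 10 are among the 24325 gene symbols of the expression tables. Each passed the filter used for testing, as did 11069 genes in all.

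AP-1 is a transcription factor made of pairs of basic leucine zipper proteins. Jun proteins pair with each other or with a Fos protein, while Fos proteins need a Jun partner to bind DNA. Fos, Egr1, Ier2 and the other immediate early genes are switched on within minutes of a signal, without new protein synthesis, by factors that MAP kinases and calcium signals activate, and their RNA is short-lived. In B cells they answer antigen receptor and Toll-like receptor signals, and AP-1 can bind and activate Prdm1, the gene of the plasma cell regulator Blimp1.

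The cells were splenic B cells of C57BL/6 mice, purified with B220 beads. They grew for 4 days in lipopolysaccharide (LPS) at 25 µg/ml, a bacterial product that signals through Toll-like receptor 4. The mice were Mzb1-/- (ko) or Mzb1+/+ (wt), and all of them were Prdm1+/gfp, so that a green fluorescent protein reporter replaced 1 Prdm1 allele in ko and wt cells alike. Mzb1 encodes a chaperone partner in the endoplasmic reticulum of antibody-secreting cells. Cells were sorted as activated B cells (ActB, CD138- and Blimp1-GFP-), pre-plasmablasts (PrePB, CD138- and Blimp1-GFP+) and plasmablasts (PB, CD138+ and Blimp1-GFP+), with 2 libraries in each of the 6 groups and 12 in all. The labels give no age or sex of the mice and do not say whether the libraries of a group came from separate animals, so p-values measure the spread between these libraries. In bulk RNA of this kind, fewer cells with a transcript and less of it per cell cannot be told apart.

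Levels are FPKM, fragments scaled to the length of the transcript and the size of the library, and differences are limma log2 changes of log2(FPKM + 1) with their standard error (SE). A difference was called where the p, adjusted over all tested genes by the Benjamini-Hochberg method, was below 0.05. The libraries held 418966 to 581262 FPKM in total and 10180 to 10466 genes at 1 FPKM or more, and their absolute depth is unknown. Low values followed 1 of 2 patterns, read from the ratios of values that libraries share: 8 libraries (the 6 of wt, ko ActB replicate 1 and ko PrePB replicate 1) followed the first, and 4 (the 2 of ko PB, ko ActB replicate 2 and ko PrePB replicate 2) the second. In PB the pattern and the genotype therefore cannot be told apart. Xist, expressed in female cells, stood at 33.3 to 81.4 FPKM in replicate 1 of each wt population and at 0.389 FPKM or less in the other 9 libraries. Ddx3y, a gene of the Y chromosome, was at 0.0479 FPKM or less in the former and at 15.7 to 22.0 FPKM in the other 9. By these genes wt replicate 1 was female and every other library male, so the wt replicates of a population came from different animals. For the ko replicates these genes do not answer that question. Mzb1 stood at 273 and 289 FPKM in ko ActB against 845 and 1016 FPKM in wt ActB, and at 1008 and 926 FPKM in ko PB against 15434 and 17359 FPKM in wt PB. Prdm1 and Sdc1, which encodes CD138, followed the sort. Sdc1 was at 0.989 and 1.43 FPKM in ko ActB, 3.24 and 4.56 FPKM in ko PrePB and 66.5 and 98.4 FPKM in ko PB, and at 0.989 and 0.978, 4.91 and 5.24, and 76.3 and 88.2 FPKM in the same order of wt populations. Some markers of granulocytes (S100a9), natural killer cells (Ncr1), dendritic cells (Clec9a) and red cells (Hbb-b1, Hba-a1) were listed at 0 in every library. Other markers of the same cells, among them S100a8, Prf1, Flt3 and Alas2, were above 0 in some or all libraries. The summed level of 7 macrophage and granulocyte markers was 12.99 to 30.1 FPKM in ko ActB, up to 4.4 FPKM in ko PrePB and 2.32 to 4.09 FPKM in ko PB, and 7.89 to 15.1, 0.950 to 1.06 and 0.337 to 0.539 FPKM in the wt populations in that order. Most of it in ActB was Adgre1, at 28.2 and 12.6 FPKM in ko and 7.84 and 13.2 FPKM in wt cells. In ko PB most of it was Lyz2, at 1.40 and 3.80 FPKM. The sum of 4 dendritic cell markers was 17.1 to 22.7 FPKM in ko ActB and 7.54 to 9.17 FPKM in ko PB, and 19.5 to 21.6 FPKM in wt ActB and 7.18 to 8.14 FPKM in wt PB. Of these 4, only Flt3 reached 1 FPKM in any library, and it made up most of the sum. The sum of 5 T cell markers went with the 10 genes instead, at 0.507 to 0.899 FPKM in ko ActB, 2.797 to 4.28 FPKM in ko PrePB and 5.75 to 9.33 FPKM in ko PB, and at 0.421 to 0.669, 3.06 to 4.67 and 3.503 to 4.83 FPKM in the wt populations in that order. Most of it was Cd3g, which was called higher in PB than in ActB (log2 change 2.297 in ko cells, limma adjusted p = 1.96e-05, and 1.74 in wt cells, limma adjusted p = 1.59e-04), while Cd3e was at 0.138 FPKM or less in every library. The sum of 4 natural killer cell markers was 0.268 to 1.55 FPKM over the 12 libraries, highest in ko PrePB replicate 1, where it was Prf1 alone. The part of these differences in the results was not tested.

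RefSeq promoter windows of build GRCm38.p6 were found for 8 of the 10 genes. The 250 bases before the start site were searched on both strands for 6 motifs: the cyclic AMP response element (CRE) TGACGTCA, its short form TGACG, the AP-1 site TGANTCA, the EGR site GCGNGGGCG, the TATA box TATAAA, and the CArG box that serum response factor binds. Windows are shown for Fos and Dusp1, which differed most between populations, for Nr4a1, which held the most short CREs, and for Fosb, which stayed at a few FPKM, each 5′ to 3′ on the strand of its gene with the matches in capitals.
Fos, chr12:85473640-85473889, plus strand: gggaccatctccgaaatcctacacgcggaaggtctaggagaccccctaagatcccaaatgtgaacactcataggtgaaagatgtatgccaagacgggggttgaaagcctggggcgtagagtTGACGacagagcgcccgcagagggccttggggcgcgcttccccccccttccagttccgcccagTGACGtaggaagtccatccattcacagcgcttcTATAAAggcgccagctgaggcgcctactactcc
Dusp1, chr17:26508473-26508722, minus strand: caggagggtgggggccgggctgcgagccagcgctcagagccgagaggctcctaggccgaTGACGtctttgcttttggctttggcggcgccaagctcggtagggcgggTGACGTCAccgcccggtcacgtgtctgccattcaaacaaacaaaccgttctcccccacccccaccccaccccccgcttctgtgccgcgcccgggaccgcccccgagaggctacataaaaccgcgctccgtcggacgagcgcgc
Nr4a1, chr15:101266596-101266845, plus strand: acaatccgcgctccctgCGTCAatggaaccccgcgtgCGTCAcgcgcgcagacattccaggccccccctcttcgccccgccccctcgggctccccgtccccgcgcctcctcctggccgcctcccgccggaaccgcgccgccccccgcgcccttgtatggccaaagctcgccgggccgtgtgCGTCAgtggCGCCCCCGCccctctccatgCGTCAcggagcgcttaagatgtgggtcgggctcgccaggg
Fosb, chr7:19310046-19310295, minus strand: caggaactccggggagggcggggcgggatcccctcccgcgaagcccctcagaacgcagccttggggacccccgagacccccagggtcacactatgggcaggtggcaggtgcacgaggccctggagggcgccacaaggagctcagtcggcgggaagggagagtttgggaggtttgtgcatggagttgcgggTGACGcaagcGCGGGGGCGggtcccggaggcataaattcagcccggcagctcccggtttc
The Fos window held 2 short CREs and a TATA box, and the Fosb window 1 short CRE and 1 EGR site. Dusp1 had the only full CRE among the 8 windows, and the 3 short CREs counted there include 2 that lie inside it, 1 on each strand. Nr4a1 had 4 short CREs, written as CGTCA in its window because they lie on the other strand, and 1 EGR site. Junb had 1 short CRE and Dusp2 1 EGR site, and the windows of Jun and Jund matched none of the 6 motifs. Over all 32841 windows of the same length, 17.8% held a short CRE, 1.55% the full CRE, 6.75% the AP-1 site, 4.70% the EGR site, 12.4% the TATA box and 1.47% the CArG box. The AP-1 site and the CArG box were in none of the 8 windows, which says only that these letters are not in these bases.

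Most of these genes were higher in PrePB and PB than in ActB in both genotypes, and none was called between PB and PrePB. In ko cells all 10 genes were called higher in PrePB than in ActB, where 27.1% of all tested genes were called higher and 27.0% lower. In wt cells 9 of 10 were called higher in PrePB than in ActB, all but Fosb, with 27.1% of all genes higher and 26.3% lower. In PB against ActB, 9 of 10 were called higher in ko cells, beside 31.2% of all genes higher and 30.9% lower, and 9 of 10 in wt cells, beside 31.0% higher and 31.0% lower. Fosb was again the exception in both. No gene of the group was called lower in any of these 4 comparisons. The median log2 change of the 10 genes was 1.39 in ko PrePB against ko ActB and 1.35 in wt PrePB against wt ActB, and 1.56 in ko PB against ko ActB and 1.45 in wt PB against wt ActB. The median over all tested genes lay between -0.02 and -0.01 in those comparisons. When every library was rescaled to the same total FPKM outside small RNA genes, the median of all genes in PB against ActB moved to -0.27 in ko and -0.38 in wt cells, and that of the group to 1.26 and 1.04. Of the 10 genes, 9 were then called in ko PB, 7 in wt PB, 8 in ko PrePB and 9 in wt PrePB, each against ActB. Of all 11069 tested genes, 2445 were then called higher and 5100 lower in ko PB, and 2149 higher and 5773 lower in wt PB. In PrePB these numbers were 2391 and 3976 in ko cells and 2107 and 4679 in wt cells.

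**Figure D1:**
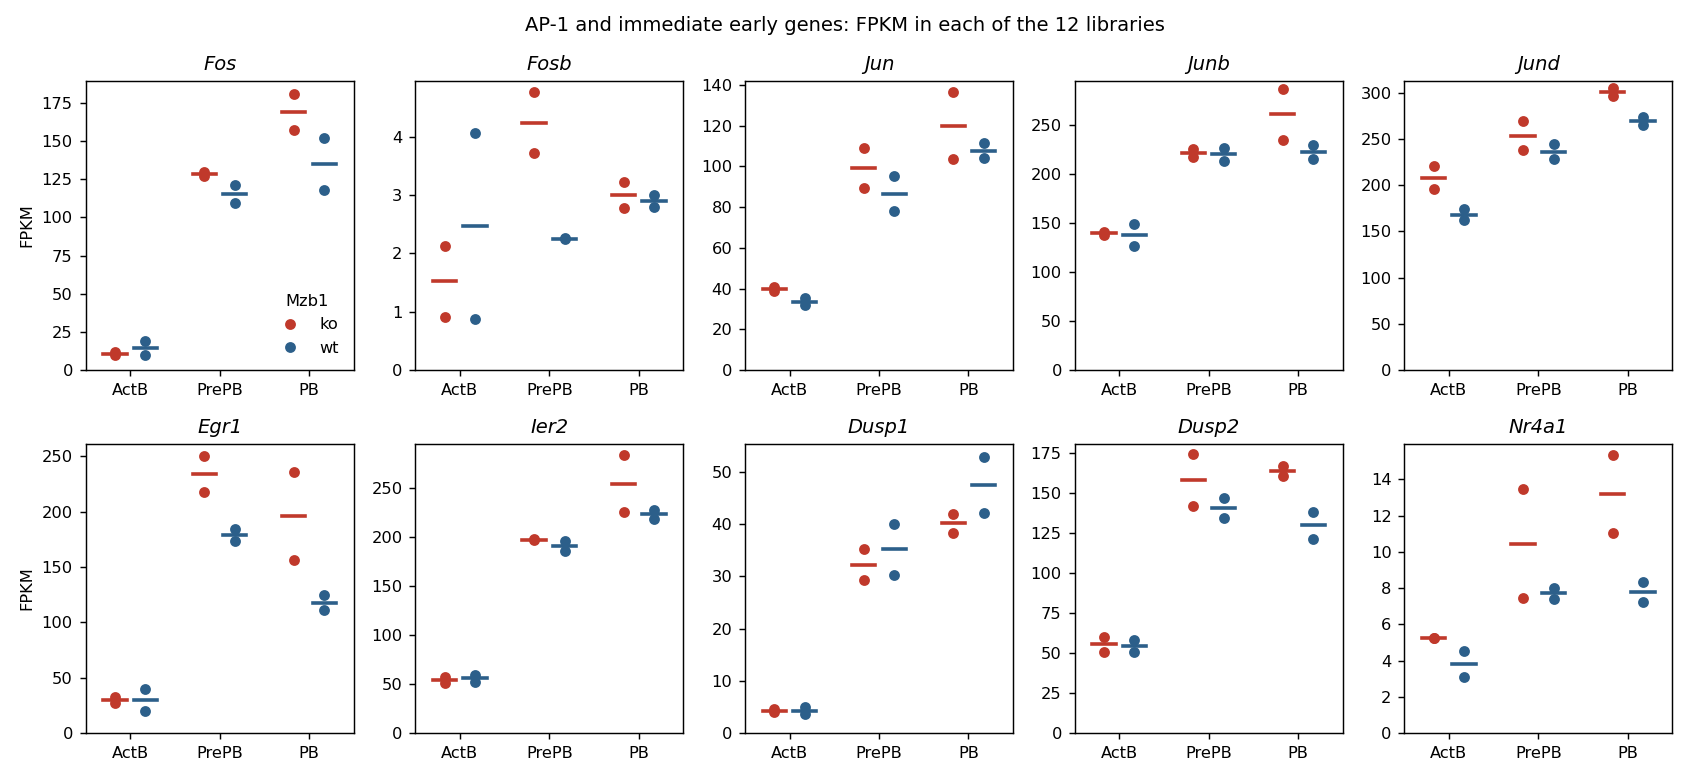
FPKM of each gene (linear axis from 0, a scale of its own in each panel) in the 12 libraries; each dot is a library, each line the mean of 2, ko in red left of wt in blue, populations from ActB to PB. Fos stays at or below 18.9 FPKM in the 4 ActB libraries and lies between 109 and 181 FPKM in the 8 PrePB and PB libraries, while the Fosb libraries overlap between populations.

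Fos, the founding member of the Fos family, had the largest difference of the group in ko cells. It was at 9.72 and 11.8 FPKM in ko ActB, 130 and 127 FPKM in ko PrePB and 181 and 157 FPKM in ko PB. In wt cells it was at 18.9 and 9.89 FPKM in ActB, 121 and 109 FPKM in PrePB and 152 and 118 FPKM in PB. Every PrePB and PB library was far above every ActB library in both genotypes. The log2 change in PB against ActB was 3.86 ± 0.23 (SE) in ko cells, a 14.5-fold difference on the FPKM + 1 scale, with an adjusted p of 1.38e-07 (limma). In wt cells it was 3.20 ± 0.23, a 9.18-fold difference, with an adjusted p of 5.64e-07 (limma). Among genes at 1 FPKM or more in their library, Fos stood at the 36.2 to 56.2 percentile in ActB and at the 92.4 to 96.1 percentile in PrePB and PB.

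Fosb, a second Fos family protein that is best known from neurons, was the lowest of the group in every library. It was at 0.915 and 2.13 FPKM in ko ActB, 4.76 and 3.71 FPKM in ko PrePB and 3.23 and 2.78 FPKM in ko PB. The wt values were 4.07 and 0.873 FPKM in ActB, 2.26 and 2.25 FPKM in PrePB and 3.01 and 2.79 FPKM in PB. The ko groups did not overlap between ActB and the later populations, but the 2 wt ActB libraries lay on either side of every later wt library. Fosb was called higher in ko PrePB than in ko ActB (log2 change 1.09 ± 0.37, limma adjusted p = 0.0298), and not in wt PrePB against wt ActB (0.08 ± 0.37, adjusted p = 0.879). Neither PB comparison was called, at 0.71 ± 0.37 in ko cells (limma adjusted p = 0.123) and 0.34 ± 0.37 in wt cells (limma adjusted p = 0.452). These calls turned on single libraries and settings. Without wt ActB replicate 1, wt PrePB and wt PB both passed the threshold against wt ActB, at 0.80 (limma adjusted p = 0.0337) and 1.06 (limma adjusted p = 0.0075). That in ko PrePB was lost without ko ActB replicate 1 (0.74, limma adjusted p = 0.199), without ko PrePB replicate 1 (0.95, 0.133) or without ko PrePB replicate 2 (1.24, 0.0569). It was also lost with no filter on low values (limma adjusted p = 0.0796), with equal totals (0.0524) and within the first pattern (0.0571). The ko PB change of 0.71 was called without wt ActB replicate 1 (limma adjusted p = 0.0170) or replicate 2 (0.0163), without wt replicate 1 of all populations (0.0374) and with the ko PB and ko ActB libraries fitted alone (0.0347).

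Jun, the founding Jun family member and a target of the Jun kinases, was 2.94-fold higher in ko PB than in ko ActB and 3.14-fold higher in wt PB than in wt ActB. Its ko values were 38.9 and 40.6 FPKM in ActB, 109 and 89.4 FPKM in PrePB and 137 and 103 FPKM in PB. Its wt values were 35.4 and 32.0 FPKM in ActB, 77.9 and 95.4 FPKM in PrePB and 104 and 112 FPKM in PB. No later library overlapped an ActB library. The log2 change in PB against ActB was 1.56 ± 0.14 in ko cells (limma adjusted p = 4.35e-06) and 1.65 ± 0.14 in wt cells (limma adjusted p = 2.65e-06).

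Junb and Jund, Jun family members that were already abundant in ActB, changed less. Junb was at 138 and 141 FPKM in ko ActB, 225 and 218 FPKM in ko PrePB and 287 and 235 FPKM in ko PB, and at 149 and 127, 213 and 227, and 215 and 229 FPKM in the wt populations in that order. Jund was at 195 and 220 FPKM in ko ActB, 238 and 269 FPKM in ko PrePB and 305 and 297 FPKM in ko PB, and at 162 and 174, 228 and 244, and 264 and 274 FPKM in the wt populations. Within each genotype the ActB libraries of both genes lay below all later ones. In PB against ActB, Junb rose by 0.89 ± 0.11 on the log2 scale in ko cells (limma adjusted p = 3.54e-05) and by 0.69 ± 0.11 in wt cells (limma adjusted p = 2.37e-04). The Jund changes were 0.54 ± 0.09 in ko cells (limma adjusted p = 4.87e-04) and 0.68 ± 0.09 in wt cells (limma adjusted p = 8.76e-05). The smallest called change of the group was that of Jund in ko PrePB against ko ActB, 0.29 ± 0.09 (limma adjusted p = 0.0231). It was not called without ko ActB replicate 1 (0.20, limma adjusted p = 0.165) or without ko PrePB replicate 2 (0.20, limma adjusted p = 0.168). Nor was it called with quantile normalization (0.16, limma adjusted p = 0.127), equal totals (0.13, 0.184), the compared libraries alone (0.29, 0.0761), the first pattern alone (0.28, 0.0983) or without wt replicate 1 of all populations (0.29, 0.0549). With equal totals the Junb change in wt PB against wt ActB fell short as well (0.28, limma adjusted p = 0.0833).

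Because FPKM is per length, the 5 Fos and Jun family genes of the group can be set against each other. Their sum was 344 to 416 FPKM in the 4 ActB libraries, 643 to 706 FPKM in the 4 PrePB libraries and 736 to 912 FPKM in the 4 PB libraries. Fos made up 2.54% to 5.12% of that sum in ActB, 16.1% to 18.8% in PrePB and 16.1% to 20.6% in PB. Jund gave 43.9% to 52.9% in ActB and 33.5% to 38.1% in the 8 later libraries, and Junb 34.0% to 40.3% and 29.1% to 33.5%. Junb and Jund were thus the most abundant AP-1 transcripts of the group in every library, and the Fos share was higher in every later library than in any ActB library. All 10 genes together took 0.105% to 0.128% of the total FPKM in ActB and 0.213% to 0.312% in the later populations.

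**Figure D2:**
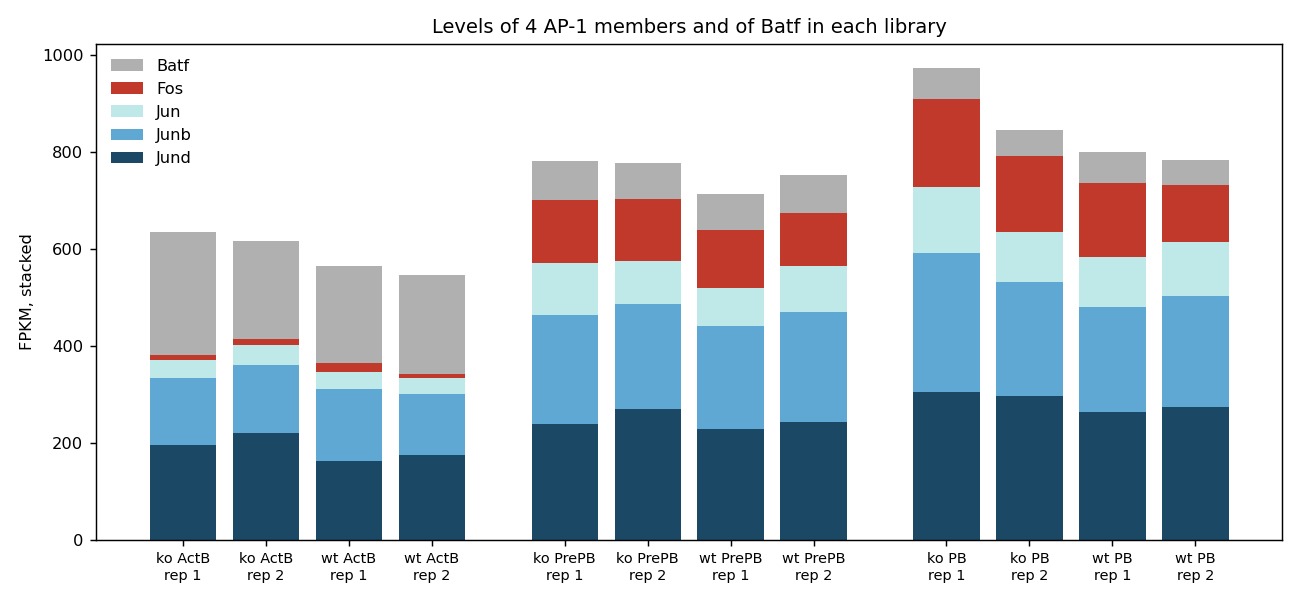
FPKM of Jund, Junb, Jun, Fos and Batf stacked for each of the 12 libraries (linear axis from 0), ko left of wt within each population. Fos is a thin band in ActB and a broad one in PrePB and PB, where the Batf band is narrower than in ActB.

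Egr1, a zinc finger transcription factor induced by MAP kinase signals, had its highest mean in PrePB in both genotypes, unlike the other 9 genes. It was at 32.3 and 27.2 FPKM in ko ActB, 250 and 218 FPKM in ko PrePB and 236 and 156 FPKM in ko PB. The wt values were 39.4 and 19.8 FPKM in ActB, 173 and 184 FPKM in PrePB and 125 and 111 FPKM in PB. The PB and PrePB libraries overlapped in ko cells and did not in wt cells. In PrePB against ActB, Egr1 rose by 2.93 ± 0.27 on the log2 scale in ko cells (limma adjusted p = 5.42e-06) and by 2.63 ± 0.27 in wt cells (limma adjusted p = 1.19e-05). The change in PB against PrePB was -0.28 ± 0.27 in ko cells (limma adjusted p = 0.570) and -0.60 ± 0.27 in wt cells (limma adjusted p = 0.190), neither of them called. With the wt PB and wt PrePB libraries fitted alone, the wt difference did pass (limma adjusted p = 0.0118).

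Ier2, a small immediate early protein, followed Fos closely at a higher level. It had 50.6 and 56.9 FPKM in ko ActB, 197 and 198 FPKM in ko PrePB and 284 and 226 FPKM in ko PB. In wt cells it had 59.1 and 52.2 FPKM in ActB, 196 and 186 FPKM in PrePB and 228 and 219 FPKM in PB. Each later library was more than 100 FPKM above each ActB library. In PB against ActB its log2 change was 2.22 ± 0.11 in ko cells (limma adjusted p = 4.08e-08) and 1.99 ± 0.11 in wt cells (limma adjusted p = 8.69e-08).

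Nr4a1, an orphan nuclear receptor (Nur77) used as a reporter of antigen receptor signals in lymphocytes, stayed low. It was at 5.22 and 5.26 FPKM in ko ActB, 7.44 and 13.5 FPKM in ko PrePB and 11.05 and 15.4 FPKM in ko PB, and at 4.55 and 3.10, 7.41 and 8.01, and 8.31 and 7.21 FPKM in the wt populations in that order. Its later libraries lay above the ActB libraries of the same genotype, while those of PrePB and PB overlapped. The called log2 change in PB against ActB was 1.17 ± 0.24 in ko cells (limma adjusted p = 0.00147) and 0.87 ± 0.24 in wt cells (limma adjusted p = 0.00837). The wt call was lost without wt ActB replicate 2 (0.66, limma adjusted p = 0.0741), without wt PB replicate 1 (0.78, limma adjusted p = 0.0508), with equal totals (0.53, limma adjusted p = 0.0663) and without wt replicate 1 of all populations (1.00, limma adjusted p = 0.0566). In PrePB against ActB it was called at 0.82 in ko cells (limma adjusted p = 0.0135) and 0.87 in wt cells (limma adjusted p = 0.0105). The first was lost without ko ActB replicate 1 (limma adjusted p = 0.0527) or ko PrePB replicate 2 (limma adjusted p = 0.1301) and within the first pattern (0.44, limma adjusted p = 0.183), and the second without wt ActB replicate 2 (limma adjusted p = 0.0885) or wt PrePB replicate 2 (limma adjusted p = 0.0547).

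The 2 phosphatases of the group, which remove the activating phosphates from MAP kinases in the nucleus and are themselves induced by those kinases, also rose. Dusp1 (MKP-1) was at 4.52 and 4.03 FPKM in ko ActB, 35.1 and 29.2 FPKM in ko PrePB and 41.9 and 38.4 FPKM in ko PB. The wt values were 4.91 and 3.63 FPKM in ActB, 40.1 and 30.3 FPKM in PrePB and 52.9 and 42.2 FPKM in PB. Its ActB libraries were all below 5 FPKM and its later ones all above 29 FPKM. On the FPKM + 1 scale, Dusp1 differed 7.81-fold in ko PB against ko ActB (log2 change 2.97 ± 0.17, limma adjusted p = 9.54e-08). In wt cells it differed 9.23-fold (3.21 ± 0.17, limma adjusted p = 5.08e-08), the highest wt estimate of the group and within 1 SE of that of Fos. The added 1 makes these folds smaller than those of the FPKM themselves. Dusp2 (PAC-1), typical of activated lymphocytes, was at 50.7 and 60.3 FPKM in ko ActB, 142 and 175 FPKM in ko PrePB and 161 and 167 FPKM in ko PB. It was at 57.9 and 50.9 FPKM in wt ActB, 147 and 135 FPKM in wt PrePB and 138 and 122 FPKM in wt PB. The PrePB and PB libraries of Dusp2 overlapped in both genotypes. Its log2 change in PB against ActB was 1.55 ± 0.12 in ko cells (limma adjusted p = 1.26e-06) and 1.24 ± 0.12 in wt cells (limma adjusted p = 7.16e-06).

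**Figure D3:**
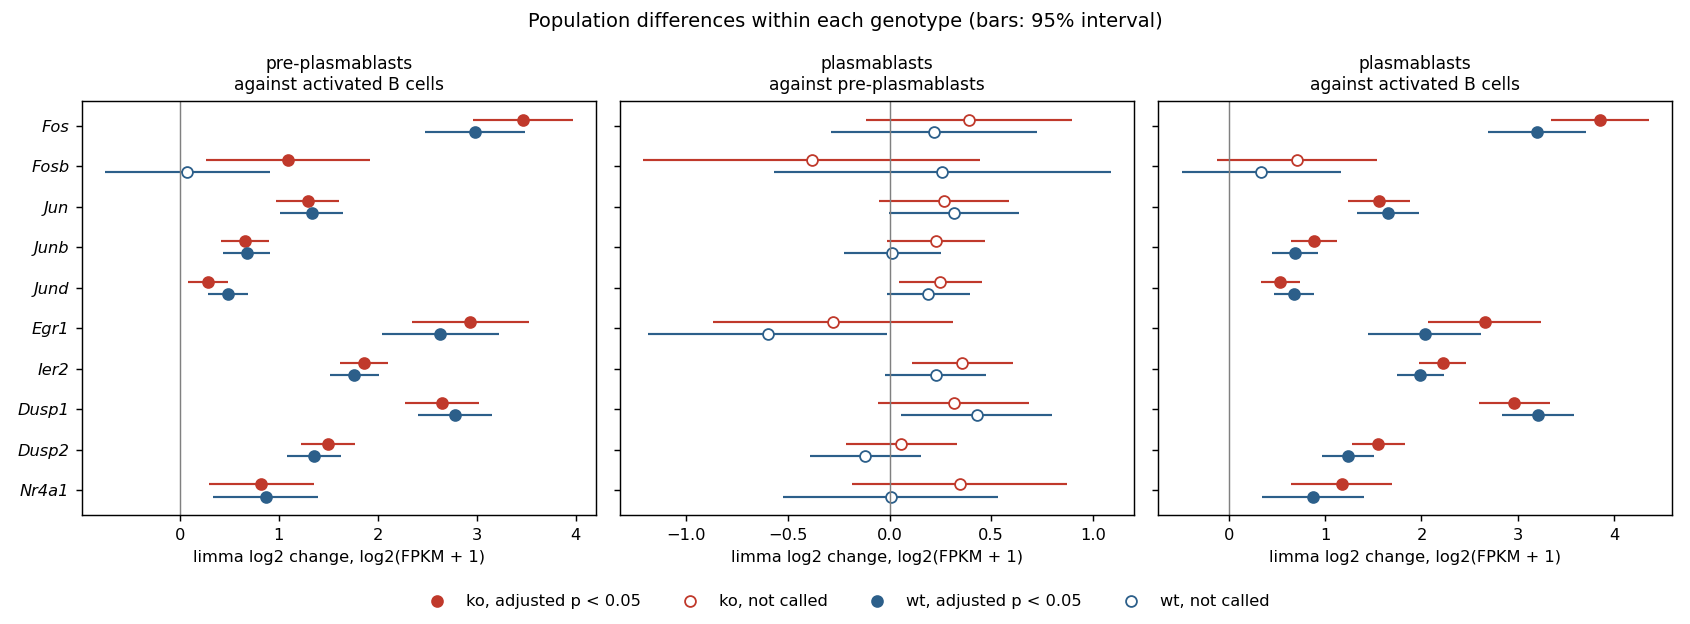
limma log2 changes of the 10 genes (horizontal axis, log2(FPKM + 1)) between populations, ko in red above wt in blue; bars are 95% intervals, filled dots were called and open dots were not. The outer panels run to 3.86 for Fos in ko PB against ko ActB, while no dot of the middle panel, PB against PrePB, was called.

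Between PB and PrePB no gene of the group was called by limma in either genotype, and 2 in each had an unadjusted p below 0.05 (Jund and Ier2 in ko cells, Egr1 and Dusp1 in wt cells). Of all 11069 tested genes, 2788 in ko and 2780 in wt cells were below that same unadjusted limit. Over all tested genes, 6.57% were called higher and 4.24% lower in ko PB than in ko PrePB, and 5.02% higher and 3.70% lower in wt PB than in wt PrePB. The largest estimates were 0.39 for Fos in ko cells (95% interval -0.11 to 0.90) and -0.60 for Egr1 in wt cells (95% interval -1.19 to -0.01). Ier2 came nearest to a call in ko cells, with an estimate of 0.36 ± 0.11 (limma adjusted p = 0.0669), and passed without ko PB replicate 2 (0.52, limma adjusted p = 0.0355). The Dusp1 estimates were 0.31 ± 0.17 in ko cells (limma adjusted p = 0.277) and 0.43 ± 0.17 in wt cells (limma adjusted p = 0.141). With the replicate number as a block, which the labels do not say marks a shared animal, Dusp1 was called in both genotypes (limma adjusted p = 0.0253 in ko and 0.00803 in wt cells). With equal totals the median of all genes moved to -0.12 in ko and -0.13 in wt cells, and that of the group, 0.26 and 0.21 otherwise, to 0.11 and 0.04.

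Mzb1 genotype was compared within each population to see whether loss of the chaperone altered the response. By Xist and Ddx3y, wt replicate 1 of each population was female and every ko library male. Sex was therefore not balanced between the genotypes. None of the 10 genes was called by limma in ActB, PrePB or PB. At an unadjusted p below 0.05 there was 1 in ActB (Jund), 0 in PrePB and 3 in PB (Egr1, Dusp2 and Nr4a1). Of all 11069 tested genes, 893 in ActB, 1665 in PrePB and 1767 in PB were below that same unadjusted limit. Over all tested genes 0.0542% were called in either direction in ActB, 0.117% in PrePB and 0.407% in PB. The direction was not the same for every gene, with estimates above 0 for 7 genes in ActB, 9 in PrePB and 9 in PB. The group's median was 0.02 in ActB, 0.16 in PrePB and 0.20 in PB, beside 0.01, 0.01 and 0.03 for all tested genes. With equal totals the PB medians became 0.31 for the group and 0.12 for all genes.

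In PB the estimates above 0.3 were those of Egr1, Nr4a1, Dusp2 and Fos. Egr1 averaged 196 ± 56.7 FPKM in ko PB and 118 ± 9.77 FPKM in wt PB (SD, n = 2 each), with an estimated log2 change of 0.70 ± 0.27, a 95% interval of 0.11 to 1.29 and a limma adjusted p of 0.244. Nr4a1 averaged 13.2 ± 3.05 FPKM in ko PB and 7.76 ± 0.776 FPKM in wt PB (SD, n = 2 each), with an estimate of 0.68 ± 0.24 (95% interval 0.15 to 1.21, limma adjusted p = 0.208). Both ko libraries lay above both wt libraries for these genes. Dusp2 averaged 164 ± 4.43 FPKM in ko PB and 130 ± 11.5 FPKM in wt PB (SD, n = 2 each), an estimate of 0.34 ± 0.12 (95% interval 0.07 to 0.61, limma adjusted p = 0.223). The Fos estimate was 0.33 ± 0.23 (95% interval -0.18 to 0.84, limma adjusted p = 0.522). Dusp1 was the only gene with an estimate below 0 in PB, at -0.23 ± 0.17 (95% interval -0.60 to 0.14, limma adjusted p = 0.536). With a term for the pattern of low values, which in PB rests on the pattern difference seen within ko ActB and ko PrePB, the estimates in PB were 0.92 for Egr1, 0.29 for Nr4a1 and 0.07 for Dusp2, none of them called (limma adjusted p = 0.434, 0.775 and 0.902). Ko and wt PB could not be compared within the first pattern, which holds no ko PB library.

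In PrePB the largest estimate was that of Fosb, which averaged 4.24 ± 0.74 FPKM in ko PrePB and 2.26 ± 0.00518 FPKM in wt PrePB (SD, n = 2 each; log2 change 0.68 ± 0.37, 95% interval -0.15 to 1.51, limma adjusted p = 0.425). Egr1 averaged 234 ± 22.8 FPKM in ko PrePB and 179 ± 7.71 FPKM in wt PrePB (SD, n = 2 each; 0.38 ± 0.27, 95% interval -0.21 to 0.97, limma adjusted p = 0.529). Within the first pattern, where ko PrePB has 1 library, these estimates were 0.82 and 0.48. In ActB, Jund averaged 208 ± 17.5 FPKM in ko cells and 168 ± 8.81 FPKM in wt cells (SD, n = 2 each), with both ko libraries above both wt ones. The estimate was 0.30 ± 0.09 (95% interval 0.10 to 0.51, limma adjusted p = 0.447), and 0.22 within the first pattern. For Fos in ActB the estimate was -0.33 ± 0.23 (95% interval -0.83 to 0.18, limma adjusted p = 0.779), and 0.11 once replicate 1 of every wt population, the libraries with high Xist, was left out.

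Whether the genotype difference itself varied between populations was tested as an interaction. None of the 10 genes was called by limma in any of the 3 interactions, and none had an unadjusted p below 0.05. Over all tested genes 0.0361% were called for PrePB minus ActB, 0 for PB minus PrePB and 0.0452% for PB minus ActB. The lowest unadjusted p was that of Fos for PB minus ActB, 0.0686, with an estimate of 0.66 and a 95% interval of -0.06 to 1.37 (limma adjusted p = 1.00). The intervals leave room for differences in either direction: that of Fosb for PrePB minus ActB ran from -0.16 to 2.18.

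**Figure D4:**
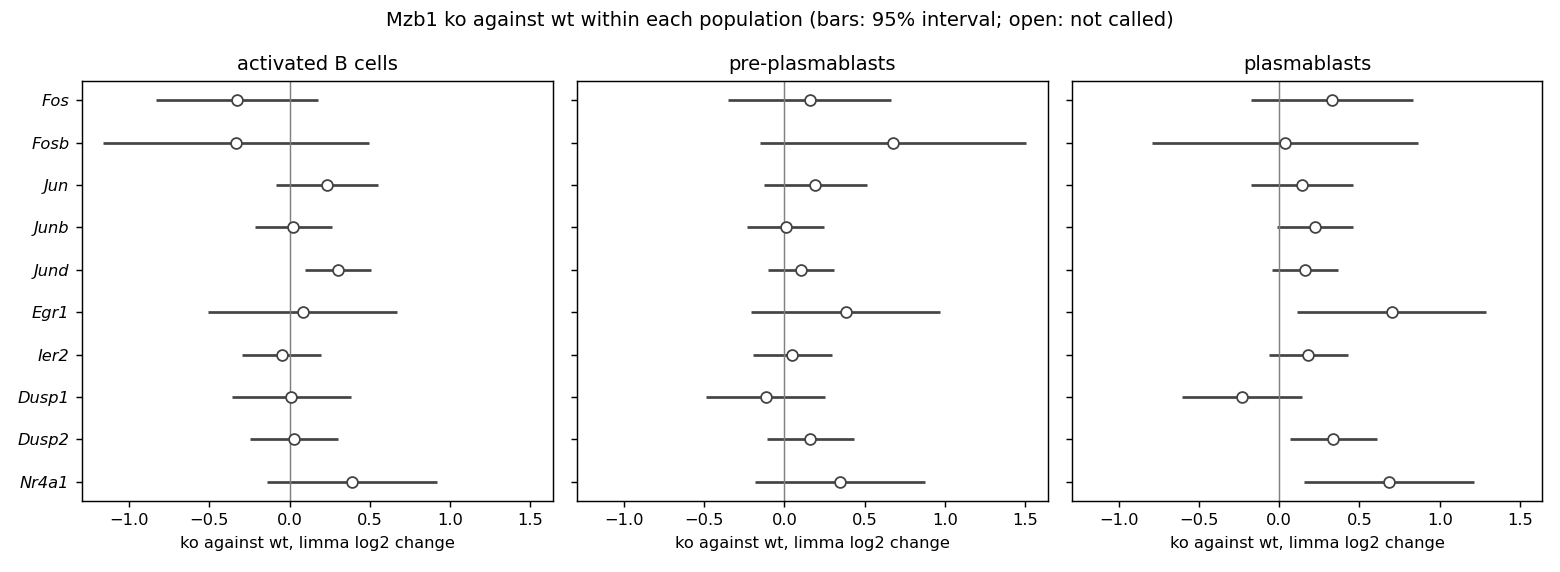
limma log2 change of ko against wt (horizontal axis) for the 10 genes in ActB, PrePB and PB; bars are 95% intervals and all dots are open because none was called. The intervals of Egr1, Dusp2 and Nr4a1 in PB and of Jund in ActB lie above 0, before adjustment for the number of genes tested.

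The pattern over the 12 libraries was shared by 9 of the 10 genes. Pearson r between pairs of genes other than Fosb, on log2(FPKM + 1), ran from 0.778 to 0.993 over 36 pairs, with Fos and Ier2 the closest pair, and the 9 pairs with Fosb gave 0.403 to 0.659. These are descriptions over 12 libraries that share 3 populations. When the mean of each population was taken away, r ranged from -0.54 to 0.85 over all 45 pairs, with a median of 0.41. Within groups, 9 of the 10 genes were higher in wt ActB replicate 1 than in replicate 2, with a median log2 ratio of 0.29. By Xist and Ddx3y the former library was female and the latter male. In ko PB, 8 of 10 were higher in replicate 1 than in replicate 2, with a median of 0.18. The other groups were split 2 to 8, 5 to 5, 6 to 4 and 7 to 3. Over all tested genes the median log2 ratio of replicate 1 to replicate 2 was -0.021 in wt ActB and -0.0197 in ko PB.

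Over the same 12 libraries and 4589 genes that varied enough to be compared, the closest gene to Fos was Colq (r = 0.997), followed by Zfp36 and Nbas (r = 0.996 for both). Ier2 was closest to Selm and Zfp36 (r = 0.998 for both) and then Sapcd2 (0.996). The nearest genes to Jun were Hdac7 (r = 0.990), Irf4 and Sfi1 (0.989 for both), and those to Junb were Fam160a2 (0.984), Plekhh3 (0.983) and Mtmr10 (0.982). Zfp36 encodes an RNA-binding protein that shortens the life of AU-rich transcripts, and Irf4 a factor required for plasma cells. Jund was closest to Maml3 (r = 0.988), Atg9a (0.985) and Mxd4 (0.978), and Egr1 to Mgat4a (0.990), Lig4 (0.984) and Reln (0.983). The list for Dusp1 was H2-Q7 and Pou2af1 (r = 0.995 for both) and Ctla4 (0.994), and for Dusp2 Crisp3 (0.990), Slc30a7 (0.989) and Reln (0.988). Nr4a1 and Fosb had looser neighbours, led by Oxsm (r = 0.952), Dcaf10 (0.939) and Atg2a (0.930) for Nr4a1 and by Acrbp (0.884), Zc3h7a (0.853) and Gabbr1 (0.848) for Fosb.

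Batf and some other members of the AP-1 family were lower in PB than in ActB. Batf, a small leucine zipper protein that pairs with Jun proteins and binds DNA together with Irf4, was at 254 and 203 FPKM in ko ActB, 79.7 and 75.9 FPKM in ko PrePB and 65.7 and 54.8 FPKM in ko PB. In wt cells it was at 200 and 204 FPKM in ActB, 73.7 and 77.7 FPKM in PrePB and 65.2 and 50.6 FPKM in PB. Every ActB library had more Batf than Fos RNA, and every later library more Fos than Batf RNA. The ratio of Fos to Batf was 0.0383 to 0.0944 in ActB, 1.41 to 1.67 in PrePB and 2.34 to 2.87 in PB. In PB against ActB, Batf fell by 1.90 ± 0.14 on the log2 scale in ko cells (log2 change -1.90, limma adjusted p = 5.97e-07) and by 1.80 ± 0.14 in wt cells (-1.80, limma adjusted p = 9.14e-07). Of the 7 tested genes of that family outside the group, 2 were higher and 3 lower in ko PB than in ko ActB, and 1 higher and 4 lower in wt PB than in wt ActB. Over all tested genes 31.2% were higher and 30.9% lower in ko cells, and 31.0% higher and 31.0% lower in wt cells. These counts are small and were not tested against those shares. With equal totals they were 1 higher and 3 lower in ko and 1 higher and 6 lower in wt cells. Among all 11069 tested genes they were then 2445 higher and 5100 lower in ko and 2149 higher and 5773 lower in wt cells. Atf3, a stress-induced family member, changed by -1.12 in ko and -1.05 in wt cells (limma adjusted p = 8.07e-04 and 0.00126), and Jdp2, a repressor that pairs with Jun, by -0.66 and -0.89 (limma adjusted p = 0.00307 and 4.16e-04). Fosl2, a Fos family member, was at 3.10 FPKM or less in every library and rose by 1.09 in ko and 0.81 in wt cells (limma adjusted p = 1.71e-04 and 0.00135). Batf3, a Batf relative at 1.75 FPKM or less in every library, had an estimate of -0.37 in ko cells (limma adjusted p = 0.225) and a called change of -0.95 in wt cells (limma adjusted p = 0.00712).

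BACH and small MAF proteins form leucine zipper dimers at sites related to the AP-1 site, and Bach2 is known to repress Prdm1. Of 5 tested genes, 3 were higher and 2 lower in PB than in ActB in both genotypes. Over all tested genes 31.2% were higher and 30.9% lower in ko cells, and 31.0% higher and 31.0% lower in wt cells. Bach2 was at 22.2 and 21.5 FPKM in ko ActB, 6.28 and 7.75 FPKM in ko PrePB and 4.997 and 5.25 FPKM in ko PB, with a log2 change of -1.90 ± 0.19 in ko PB and -1.96 ± 0.19 in wt PB against ActB (limma adjusted p = 7.86e-06 and 5.85e-06). Bach1, its relative, was at 2.71 and 4.71 FPKM in ko ActB and 15.2 and 20.3 FPKM in ko PB, a change of 2.01 ± 0.20 in ko and 2.169 ± 0.20 in wt cells (limma adjusted p = 7.52e-06 and 4.04e-06). Maff and Mafg rose by 1.60 and 0.93 in ko and by 1.51 and 0.84 in wt cells, while Mafk changed by -0.42 and -0.50 (limma adjusted p = 0.0108 and 0.00395). The Mafk call in ko cells was lost without ko ActB replicate 2 (-0.29, limma adjusted p = 0.0976) or ko PB replicate 2 (-0.33, 0.0827), and that in wt cells without wt replicate 1 of all populations (-0.44, 0.0913).

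Of 31 other tested immediate early genes, 20 were higher and 7 lower in ko PB than in ko ActB, and 16 higher and 5 lower in wt PB than in wt ActB, with median log2 changes of 0.70 and 0.50. Of all tested genes, 31.2% were higher and 30.9% lower in ko cells and 31.0% higher and 31.0% lower in wt cells, with medians of -0.01 in both. Atf3 is on this list too. With equal totals the counts were 18 higher and 7 lower in ko and 15 higher and 9 lower in wt cells. Among all 11069 tested genes they were then 2445 higher and 5100 lower in ko and 2149 higher and 5773 lower in wt cells. Trib1, a pseudokinase, was at 6.37 and 5.42 FPKM in ko ActB and 88.8 and 80.2 FPKM in ko PB, and changed by 3.63 ± 0.15 in ko and 3.63 ± 0.15 in wt cells (limma adjusted p = 1.03e-08 and 9.93e-09). Zfp36 was at 61.9 and 65.7 FPKM in ko ActB and 707 and 608 FPKM in ko PB, changing by 3.34 ± 0.14 in ko and 3.03 ± 0.14 in wt cells (limma adjusted p = 1.08e-08 and 2.07e-08). Both genes changed about as much as Fos. Egr2, a relative of Egr1, rose by 3.35 in ko and 2.90 in wt cells, Gadd45b by 1.45 and 1.51, and Ier5l by 2.15 and 1.91. Egr3, a further relative picked out after its values were seen, fell by 0.85 on the log2 scale in ko and by 1.04 in wt cells (log2 changes -0.85 and -1.04, limma adjusted p = 0.00293 and 7.78e-04). The ratio of Egr1 to Egr3 was 2.03 to 3.04 in ActB and 19.8 to 43.0 in the later libraries. The ratio of Egr1 to Egr2 was 8.04 to 11 in ActB, 7.18 to 10.8 in PrePB and 3.46 to 5.6 in PB.

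The factors that switch on these genes were set beside them. Of 15 tested genes for SRF, its ternary complex and myocardin-related partners, CREB, its coactivators and MEF2, 2 were higher and 7 lower in ko PB than in ko ActB, and 2 higher and 9 lower in wt PB than in wt ActB. Over all tested genes these shares were 31.2% and 30.9% in ko cells and 31.0% and 31.0% in wt cells, and the lists were not tested against them. With equal totals the counts were 2 higher and 9 lower in ko and 2 higher and 13 lower in wt cells. Among all 11069 tested genes they were then 2445 higher and 5100 lower in ko and 2149 higher and 5773 lower in wt cells. Mkl1, an actin-regulated SRF partner, changed by -1.30 ± 0.12 in ko and -1.51 ± 0.12 in wt cells (limma adjusted p = 3.94e-06 and 1.17e-06). Creb1 changed by -1.10 and -1.28, its coactivator Crtc2 by -1.10 and -1.23, and the ternary complex factor Elk1 by -0.96 and -0.80, all called in both genotypes by limma. Mef2c rose by 0.77 ± 0.09 in ko and 0.71 ± 0.09 in wt cells (limma adjusted p = 2.40e-05 and 4.39e-05).

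Among 8 other MAP kinase phosphatases, 7 were higher and 1 lower in ko PB than in ko ActB, and 5 higher and 1 lower in wt PB than in wt ActB, beside 31.2% higher and 30.9% lower of all tested genes in ko cells and 31.0% and 31.0% in wt cells. Dusp4, a nuclear relative of Dusp1 and Dusp2, was at 13.6 and 14.2 FPKM in ko ActB, 102 and 114 FPKM in ko PrePB and 94.3 and 101 FPKM in ko PB, and at 16.6 and 14.2, 121 and 120, and 119 and 108 FPKM in the wt populations in that order. It rose by 2.73 ± 0.09 in ko and 2.80 ± 0.09 in wt cells (limma adjusted p = 3.56e-09 and 3.03e-09). The one that fell was Dusp10, which acts on p38 and Jun kinases. It was at 33.3 and 40.0 FPKM in ko ActB, 2.95 and 3.58 FPKM in ko PrePB and 2.52 and 1.16 FPKM in ko PB, a log2 change of -3.77 ± 0.21 in ko and -3.77 ± 0.21 in wt cells (limma adjusted p = 8.28e-08 and 7.90e-08). Dusp9, Dusp16 and Dusp8 rose by 2.09, 0.98 and 0.67 in ko and by 2.64, 1.22 and 0.60 in wt cells, all called, although Dusp8 reached 1.11 FPKM at most and its wt call was lost without wt ActB replicate 2 (0.51, limma adjusted p = 0.0633). Dusp6, the weakest of the 5 called in wt cells at 0.32 (limma adjusted p = 0.0344), turned to -0.065 with equal totals (limma adjusted p = 0.698). Its call was also lost without wt ActB replicate 2 (0.19, limma adjusted p = 0.238), wt PB replicate 1 (0.34, 0.0849) or wt PB replicate 2 (0.30, 0.121), with no filter (0.32, 0.0536) and with the compared libraries alone (0.32, 0.0593).

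Of 38 tested genes of the Ras, Raf and MAP kinase cascade, 10 were higher and 11 lower in ko PB than in ko ActB, and 9 higher and 13 lower in wt PB than in wt ActB. These shares are near those of all tested genes. With equal totals the counts became 6 higher and 22 lower in ko and 2 higher and 24 lower in wt cells. All 11069 tested genes shifted too, to 2445 higher and 5100 lower in ko and 2149 higher and 5773 lower in wt cells. The lowest p belonged to Rasgrp2 and Rasgrp1, exchange factors that load small GTPases. Rasgrp2 and Rasgrp1 changed by -4.42 and -3.00 in ko cells (limma adjusted p = 7.44e-08 and 1.05e-07). In wt cells they changed by -4.81 and -3.16 (limma adjusted p = 3.84e-08 and 6.79e-08). Rasgrp2 was at 62.2 and 89.9 FPKM in ko ActB and 3.24 and 1.98 FPKM in ko PB, against 58.5 and 69.7 FPKM in wt ActB and 0.89 and 1.84 FPKM in wt PB. Mapk11, a p38 isoform, changed by -1.53 in ko and -1.90 in wt cells. Rps6ka2 rose by 1.22 and 1.29, and Map2k2, a kinase that activates ERK, by 0.87 and 0.84.

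Heat shock genes, which respond to stress of cells in culture or during handling, were set beside the group. Of 10 tested, 3 were higher and 6 lower in ko PB than in ko ActB, and 3 higher and 7 lower in wt PB than in wt ActB. Over all tested genes 31.2% were higher and 30.9% lower in ko cells, and 31.0% higher and 31.0% lower in wt cells. Hspa1a and Hspa1b, the most stress-inducible of them, stayed below 1 FPKM in every library. Hspd1 changed by -1.33 in ko and -1.18 in wt cells, Hsp90aa1 by -1.32 and -0.92 and Hsp90ab1 by -0.95 and -0.82, while Hspb1 rose by 2.89 and 2.67 and Dnajb1 by 0.54 and 0.49, all called by limma. With equal totals the Dnajb1 change in wt cells was 0.09 and not called (limma adjusted p = 0.419). The part of cell handling in the levels of the AP-1 and immediate early genes was not tested.

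**Figure D5:**
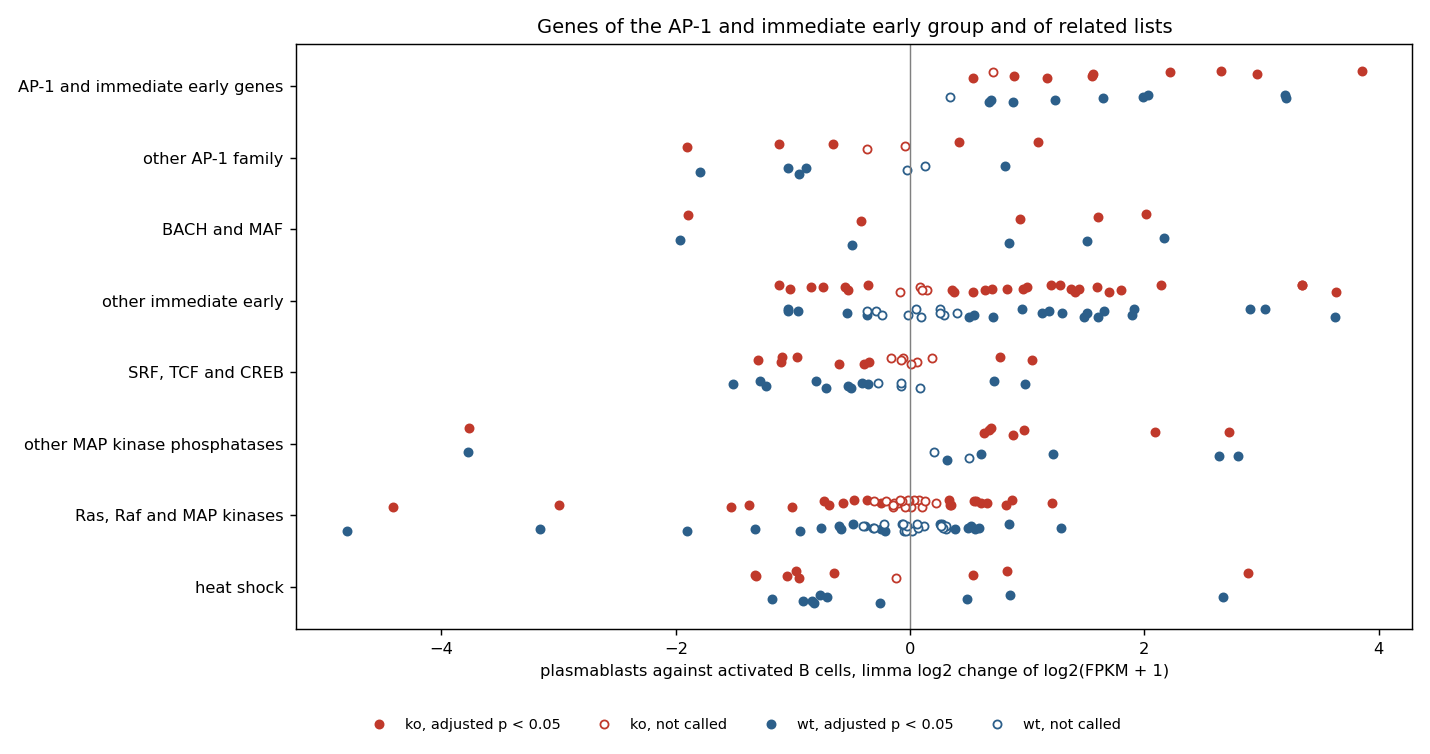
limma log2 change in PB against ActB (horizontal axis) for the 10 genes and for the tested genes of 7 related lists, ko in red above wt in blue; filled dots were called and open dots were not. All dots of the AP-1 and immediate early genes lie right of 0, while the other lists spread to both sides, down to -4.81 for Rasgrp2.

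Of all the genes in these 7 lists, 2 were called between genotypes, both in PB, and none in ActB or PrePB. Over all tested genes 0.407% were called in either direction in PB, 0.117% in PrePB and 0.0542% in ActB. The lists were not tested against these shares. Dusp6, a cytoplasmic ERK phosphatase, was at 26.8 and 22.3 FPKM in ko PB against 14.7 and 15.1 FPKM in wt PB, a log2 change of 0.67 ± 0.12 (limma adjusted p = 0.0419). Plk3, a stress-responsive polo-like kinase, was at 14.2 and 9.77 FPKM in ko PB against 6.53 and 5.82 FPKM in wt PB, a change of 0.84 ± 0.15 (limma adjusted p = 0.0419). For both genes the libraries of the genotypes did not overlap. Their estimates in PrePB were 0.53 and 0.85 (limma adjusted p = 0.133 and 0.0724). That of Plk3 in PrePB was called, at the same 0.85, with the compared libraries alone (limma adjusted p = 0.0398) and without ko PB replicate 1 (0.0157) or replicate 2 (0.0153). The PB calls were fragile: of 21 other settings 14 lost that of Dusp6 and 16 that of Plk3, with estimates of 0.55 to 0.80 and 0.59 to 1.09. With a term for the pattern of low values they were 0.66 and 0.80 (limma adjusted p = 0.292 and 0.302).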

How the data were processed

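RNA was measured by sequencing of polyadenylated RNA in 12 libraries (TruSeq Stranded mRNA, per the labels). The authors deposited FPKM in 1 table per library. Per the submitters' processing notes, Cuffnorm 2.2.1, Cuffdiff and Cufflinks 2.2.1 were used with TopHat2 2.0.14 and build mm9, after bcl2fastq in versions 2.17.1.14 and 0.3.1. The annotation, scaling and filters are not given in the sources used here. The tables hold no counts, so depth is unknown and no counting interval was computed. Whether strand was used is not given either, so reads of a gene and an antisense partner cannot be told apart.

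Genes at 1 FPKM or more in at least 2 libraries were tested on log2(FPKM + 1) with limma-trend (limma 3.58.1, R 4.3.3): 1 coefficient for each of 6 groups, 6 residual degrees of freedom, a prior of 4.49, two-sided, Benjamini-Hochberg adjustment within each of 9 comparisons and 3 interactions. The pattern of low values came from genes below 0.5 FPKM: a pair of libraries shared 1 ratio of values (log2 tolerance 0.002) in 9.07% to 20.5% of them within the first pattern, 7.70% to 16.6% within the second and 2.13% to 4.89% across. From each list, up to 5 called genes with the lowest p in wt PB against wt ActB were named, and any called between genotypes. Likeness used genes with a range of at least 1 on the log2 scale. The model was also run on data simulated from its own fit with independent noise. That run cannot show how well the model suits these libraries. Python 3.11.15 and matplotlib 3.10.9 drew the figures. The members and lists were chosen with earlier results of these data known. Alternatives were 2 filters, a pseudocount of 0.1, quantile normalization, equal totals, the compared groups alone, a replicate block, 2 for the pattern, leaving out wt replicate 1 and leaving out each library in turn.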

Additional observations from a re-analysis of the deposited data

How the results depend on the processing

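Of 2578 values of the 10 genes under 22 other settings, 2544 kept their direction and side of the threshold or stayed uncalled, 23 lost a call, 11 gained one and 0 reversed. The number of the 10 genes called stayed at 0 for each comparison of ko with wt and each interaction under every setting run. For wt PB against wt PrePB the count of 0 became 1 with the compared groups alone (Egr1) and 1 with the replicate block (Dusp1, limma adjusted p = 0.00803). For ko PB against ko PrePB it became 1 with the replicate block (Dusp1, limma adjusted p = 0.0253), and was 0 to 1 when a library was left out. Leaving out single libraries gave 8 to 10 calls in wt PrePB against wt ActB, 0 to 0 in wt PB against wt PrePB, 8 to 10 in wt PB against wt ActB, 7 to 10 in ko PrePB against ko ActB and 9 to 10 in ko PB against ko ActB. Where 1 library was left in a group, its spread was taken from the other groups. The labels do not say that a replicate number marks a shared animal: replicate differences correlated across genes by 0.046 to 0.316 between populations of 1 genotype and by -0.11 to -0.047 between genotypes. Equal totals turned the wt PB against wt ActB change of Dusp6, 0.32 and called, to -0.065 and not called (limma adjusted p = 0.698). It also moved the split of all called genes in that comparison from 3432 higher and 3432 lower to 2149 and 5773, and in ko cells from 3458 and 3422 to 2445 and 5100. Among 37 list genes, 1642 of 1701 values kept their call in the same direction or stayed uncalled in either direction. The ko PB comparisons could not be fitted within the first pattern. Depth is unknown, so how far it limits genes of a few FPKM, such as Fosb and Nr4a1, cannot be given.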
